A study of Homo sapiens with 2 samples.

Results

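Translation initiation factor genes here were all genes of the deposited transcript table whose symbols began with EIF and a number between 1 and 6, without the eIF2 kinase genes. 51 of the 20263 genes in the table matched, with 324 of its 95139 transcripts. RNA-seq measured them in H9, an established line of human embryonic stem cells. The siHNRNPA1 cells had received small interfering RNA against HNRNPA1, which encodes the splicing regulator hnRNP A1, for 48 h. The sicontrol cells had received a control small interfering RNA for the same time. Each condition had 1 library, so there was no replicate spread and no test, and every difference below compares 2 libraries.

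Initiation factors bring the initiator tRNA, the small ribosomal subunit and the mRNA together and set the start codon. eIF2 carries the initiator tRNA and is recharged with GTP by eIF2B, eIF3 is the large scaffold on the small subunit, and the eIF4 proteins bind the cap, bridge it to the ribosome and unwind the leader of the mRNA. eIF5, eIF5B and eIF6 act on GTP hydrolysis and on the joining of the ribosomal subunits. In mouse embryonic stem cells, protein synthesis is known to rise on differentiation.

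The siHNRNPA1 library held 28147828 counts and the sicontrol library 26680342. HNRNPA1 itself was at 180 FPKM (fragments per kilobase of transcript, scaled to library size) in the siHNRNPA1 library, against 663 FPKM in the sicontrol library, or 27.1% of it. All 6 stem cell markers examined (POU5F1, SOX2, NANOG, LIN28A, TDGF1 and DPPA4) were at 10 FPKM or more in both libraries. POU5F1 was at 1355 FPKM with siHNRNPA1, against 864 FPKM with sicontrol, while SOX2 was at 58.3 and DPPA4 at 119 FPKM with siHNRNPA1, against 126 and 346 FPKM with sicontrol. NANOG, LIN28A and TDGF1 had log2 folds of -0.31, -0.01 and -0.09 on the scale defined below, and the part of these differences in the values below was not tested. The folds below are log2 of siHNRNPA1 over sicontrol after 1 FPKM was added to both, and genes differing by 2-fold or more were called higher or lower. The median of all 11921 genes with a mean of at least 1 FPKM was -0.13 on this scale. In bulk RNA, fewer cells with an mRNA and less of it per cell cannot be told apart.

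47 of the 51 genes reached a mean of 1 FPKM, and most of them stayed within 2-fold. 2 were higher with siHNRNPA1, EIF5A and EIF6, where 12.4% of all genes were. 7 were lower, where 21.9% of all genes were, and these were EIF3A, EIF4A2, EIF4E, EIF4E3, EIF4EBP2, EIF4G2 and EIF4G3. 6 of the 7 encode proteins of the eIF4 group. The median over the 47 genes was -0.01. Together they took 0.993% of all FPKM with siHNRNPA1 and 0.920% with sicontrol. The exact 95% binomial interval on the log2 ratio of counts had a half-width of at most 0.222 for the 9 genes past 2-fold, and it covers counting error only. The other 4 genes were below the minimum: EIF4E1B, EIF5A2 and EIF5AL1 were at 0.447, 0.625 and 0.517 FPKM with siHNRNPA1, against 0.134, 1.37 and 0.138 FPKM with sicontrol, and EIF1AY, on the Y chromosome, is not described.

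**Figure D1:**
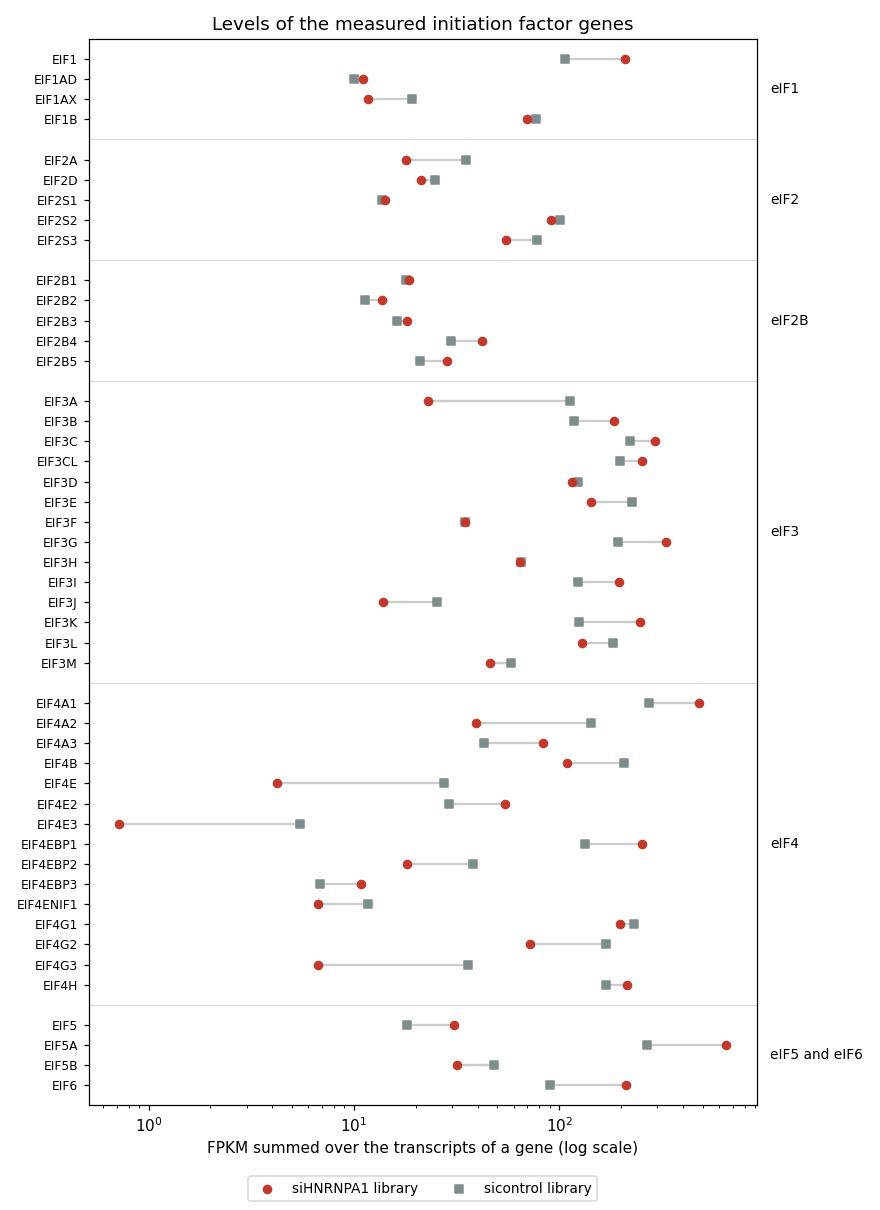
Level of each of the 47 initiation factor genes with a mean of at least 1 FPKM in the siHNRNPA1 library (red circles) and the sicontrol library (grey squares), as FPKM summed over its transcripts on a log axis, grouped by complex. The levels ran from 0.718 FPKM for EIF4E3 to 652 FPKM for EIF5A in the siHNRNPA1 library, and the widest gaps were those of EIF4E3, EIF4E, EIF3A and EIF4G3.

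**Figure D2:**
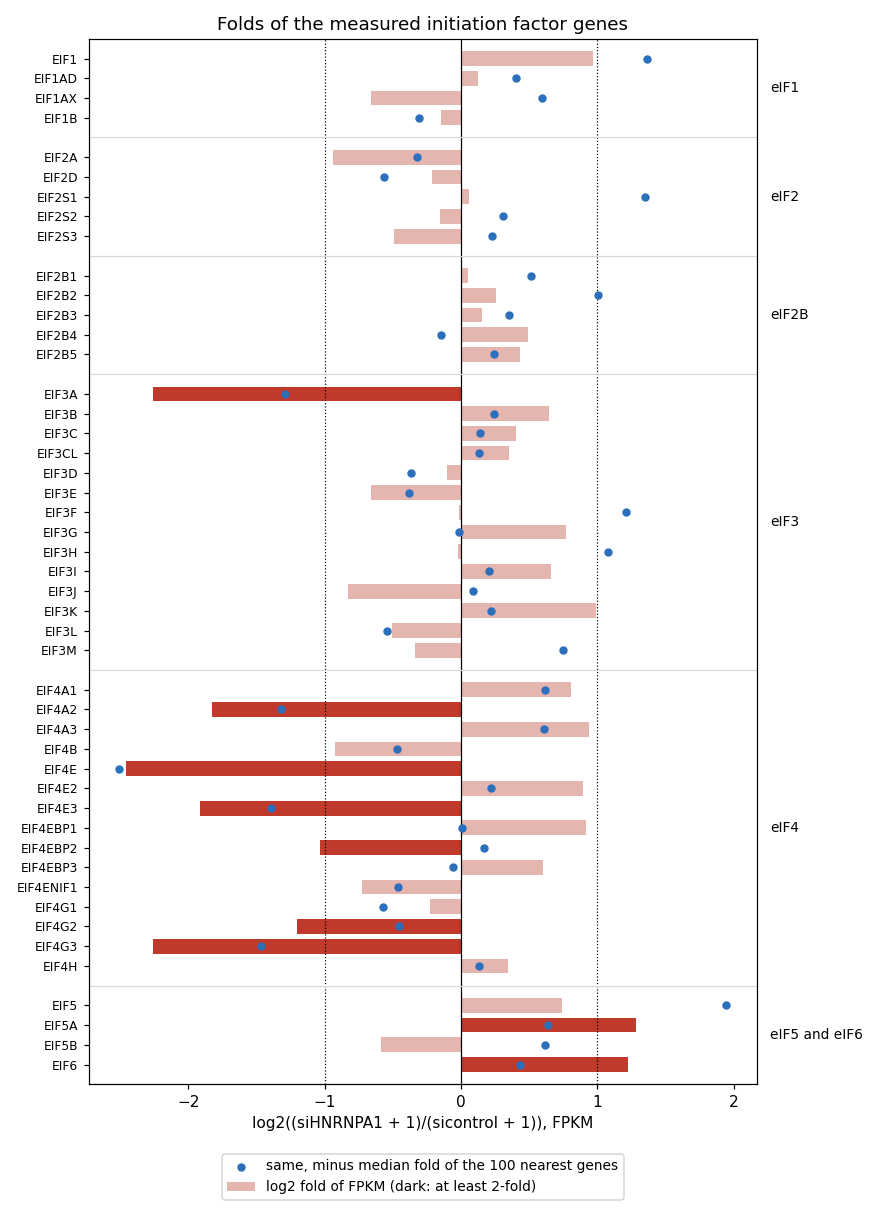
Log2 fold of each gene (bars, dark from 2-fold) and the same fold after subtraction of the median fold of its 100 nearest genes in expression, length and GC content (blue points). Dotted lines mark 2-fold, and the dark bars to the left are EIF3A and 6 genes of the eIF4 group.

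The eIF1 genes set the accuracy of start codon choice. EIF1 was at 208 FPKM with siHNRNPA1, against 106 FPKM with sicontrol, a log2 fold of 0.96 just inside the limit. It reached that limit by counts scaled to library size (1.00) and after median ratio scaling. Its paralog EIF1B was at 69.3 FPKM with siHNRNPA1, against 76.8 FPKM with sicontrol. EIF1 thus held 75.01% of the summed FPKM of the 2 paralogs in the siHNRNPA1 library and 58.0% in the sicontrol library. EIF1AX, which encodes the scanning factor eIF1A, was at 11.8 FPKM with siHNRNPA1, against 19.2 FPKM with sicontrol. EIF1AD was at 11.02 and 10.1 FPKM in the siHNRNPA1 and the sicontrol library.

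None of the eIF2 genes passed 2-fold in FPKM. EIF2S1 encodes the alpha subunit whose phosphorylation lowers initiation under stress, and it was at 14.2 FPKM with siHNRNPA1, against 13.6 FPKM with sicontrol. EIF2S2, the beta subunit, was at 90.8 FPKM with siHNRNPA1, against 101 FPKM with sicontrol. EIF2S3, the gamma subunit that binds GTP and the initiator tRNA, was at 55.3 FPKM with siHNRNPA1, against 78.1 FPKM with sicontrol. The alpha subunit gene was the lowest of the 3 in both libraries. EIF2A, which despite its name is not a subunit of this trimer and encodes a separate factor that binds initiator tRNA, was at 17.9 FPKM with siHNRNPA1, against 35.2 FPKM with sicontrol, close under the 2-fold limit, and it passed that limit on the TPM scale and by counts scaled to library size (-1.05). EIF2D, another tRNA-binding factor, was at 21.2 FPKM with siHNRNPA1, against 24.7 FPKM with sicontrol.

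All 5 genes of eIF2B, the exchange factor that returns eIF2 to its GTP form, were above 0 in FPKM and within 2-fold. EIF2B4, the delta subunit, was at 42.2 FPKM with siHNRNPA1, against 29.7 FPKM with sicontrol. EIF2B5, the catalytic epsilon subunit, was at 28.5 FPKM with siHNRNPA1, against 20.9 FPKM with sicontrol. EIF2B1, EIF2B2 and EIF2B3 had log2 folds of 0.05, 0.26 and 0.15. The summed FPKM of the complex in the siHNRNPA1 library was 126% of that in the sicontrol library, and the median fold of 0.26 stayed above 0 under each scaling tried. After subtraction of the nearest genes in expression, length and GC content, EIF2B4 was at -0.15 and the other eIF2B genes above 0. The sign of EIF2B2 turned by counts scaled to library size, where its fold was -0.45 from 1150 counts with siHNRNPA1 and 1494 with sicontrol. Its protein-coding transcripts were at 6.57 FPKM with siHNRNPA1, against 11.1 FPKM with sicontrol, a log2 fold of -0.68.

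Within eIF3, EIF3A stood apart from the other 13 genes measured. EIF3A (chr10:119033670-119080823, minus strand, GRCh38) encodes the largest subunit, around which the complex assembles. It was at 22.9 FPKM with siHNRNPA1 (95% interval 22.2 to 23.5), against 113 FPKM with sicontrol (112 to 115), from 5025 counts with siHNRNPA1 and 23373 with sicontrol. This was 20.1% of its sicontrol level (log2 fold -2.26), and the other 13 genes had folds between -0.83 and 0.99. Of the other subunits of the core also found in yeast, EIF3B was at 186 FPKM with siHNRNPA1, against 118 FPKM with sicontrol. EIF3B was at 8.13 times the FPKM of EIF3A in the siHNRNPA1 library and 1.04 times in the sicontrol library. EIF3G and EIF3I were at 329 and 195 FPKM with siHNRNPA1, against 193 and 123 FPKM with sicontrol. EIF3C was at 293 FPKM with siHNRNPA1, against 222 FPKM with sicontrol, and its near-identical copy EIF3CL was at 253 FPKM with siHNRNPA1, against 198 FPKM with sicontrol. These last levels are uncertain, because reads cannot be assigned surely between the copies.

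The remaining eIF3 subunits lay on both sides of 0. EIF3K, a small peripheral subunit, was at 248 FPKM with siHNRNPA1, against 125 FPKM with sicontrol. Its neighbour in the complex, EIF3L, was at 129 FPKM with siHNRNPA1, against 183 FPKM with sicontrol. EIF3E was at 142 FPKM with siHNRNPA1, against 225 FPKM with sicontrol. It was the highest eIF3 gene there only with the copies EIF3C and EIF3CL (222 and 198 FPKM with sicontrol) counted apart. EIF3M was at 45.8 FPKM with siHNRNPA1, against 58.3 FPKM with sicontrol. EIF3F and EIF3H, subunits that form a pair with related domains, differed little in FPKM: their folds were -0.01 and -0.03. By counts scaled to library size the folds of EIF3F and EIF3H were -0.21 and -0.48, and over protein-coding transcripts alone -0.30 and -0.29. EIF3J, the loosely bound subunit, was at 13.8 FPKM with siHNRNPA1, against 25.3 FPKM with sicontrol, and EIF3D at 115 FPKM with siHNRNPA1, against 124 FPKM with sicontrol. The median over the 14 genes was -0.02, and it was 0.13 after median ratio scaling and -0.17 on the TPM scale, so no direction holds for the complex as a whole.

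The eIF4 group held 6 of the 7 lower genes among its 15 measured members and no higher one, where 21.9% of all genes were lower. 4 of the 15 were 2-fold lower after subtraction of the median fold of their nearest genes in expression, length and GC content, where 8.41% of all genes were. Its median fold was -0.73, with 9 genes below 0 and 6 above. The summed FPKM of the group was nearly the same in both libraries, 1549 with siHNRNPA1 and 1522 with sicontrol. The abundant EIF4A1, EIF4EBP1 and EIF4H were above 0, and EIF4A2, EIF4EBP2 and EIF4B below. The balance of paralogs differed between the libraries for the helicase, the cap-binding protein, the scaffold and the 4E-BP proteins.

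EIF4E (chr4:98871684-98930637, minus strand, GRCh38) encodes the protein that binds the cap. Its summed level was 4.20 FPKM with siHNRNPA1 (95% interval 3.97 to 4.45), against 27.6 FPKM with sicontrol (26.5 to 28.7). These intervals use the gene's total counts. The sicontrol interval is too narrow even for counting error, since most of that FPKM rests on 440 counts of a single transcript. In counts the gap was narrower, 1191 with siHNRNPA1 and 2402 with sicontrol, a log2 fold of -1.07 after scaling to library size. A single short transcript annotated for nonsense-mediated decay, EIF4E-211 with 738 bases, had 0 counts in the siHNRNPA1 library and 440 counts in the sicontrol library, where it made up 69.7% of the FPKM of the gene. The 0 counts allow a share of up to 0.252% of the gene's counts. Over protein-coding transcripts alone, EIF4E was at 4.20 FPKM with siHNRNPA1, against 8.37 FPKM with sicontrol, a log2 fold of -0.85 that is within the limit. Most of these counts belonged to EIF4E-203, an annotated transcript of 11523 bases, with 1149 counts with siHNRNPA1 and 1858 with sicontrol.

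EIF4E2, a cap-binding relative that represses translation, was at 54.7 FPKM with siHNRNPA1, against 28.98 FPKM with sicontrol. EIF4E3 (chr3:71675416-71754773, minus strand), another cap-binding relative, was at 0.718 FPKM with siHNRNPA1, against 5.47 FPKM with sicontrol, from 239 counts with siHNRNPA1 and 569 with sicontrol. In EIF4E3 too the transcripts differed: EIF4E3-201 had 0 counts with siHNRNPA1 and 413 with sicontrol, and EIF4E3-204 held all of the gene's counts in the siHNRNPA1 library. EIF4E2 made up 91.1% of the FPKM of this family in the siHNRNPA1 library and 46.6% in the sicontrol library, and EIF4E made up 7.004% with siHNRNPA1 and 44.4% with sicontrol. By counts scaled to library size, EIF4E made up 26.1% with siHNRNPA1 and 49.6% with sicontrol.

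EIF4A1 and EIF4A2 encode nearly interchangeable RNA helicases of the cap complex, and they differed in opposite directions. EIF4A1 was at 478 FPKM with siHNRNPA1, against 272 FPKM with sicontrol. EIF4A2 (chr3:186783205-186789900, plus strand) was at 39.5 FPKM with siHNRNPA1 (95% interval 38.0 to 41.1), against 143 FPKM with sicontrol (139 to 146), a log2 fold of -1.82. EIF4A1 therefore stood at 12.1 times the level of EIF4A2 in the siHNRNPA1 library and at 1.91 times in the sicontrol library. EIF4A3, the third helicase, is a core part of the exon junction complex, and it was at 83.0 FPKM with siHNRNPA1, against 42.8 FPKM with sicontrol. EIF4A1 shares exons on the same strand with the readthrough gene SENP3-EIF4A1, which was at 15.9 FPKM with siHNRNPA1, against 0.584 FPKM with sicontrol. Of the helicase cofactors, EIF4B was at 109 FPKM with siHNRNPA1, against 207 FPKM with sicontrol, and EIF4H at 214 FPKM with siHNRNPA1, against 169 FPKM with sicontrol.

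The eIF4G scaffolds were all below 0 on the FPKM scale. EIF4G1, the main scaffold, was at 198 FPKM with siHNRNPA1, against 231 FPKM with sicontrol, but its fold was 0.29 by counts scaled to library size. EIF4G2 (chr11:10797050-10809110, minus strand), a relative that lacks the eIF4E-binding region, was at 72.4 FPKM with siHNRNPA1, against 168 FPKM with sicontrol, a log2 fold of -1.20 that was -0.46 after subtraction of its nearest genes. EIF4G3 (chr1:20806292-21176888, minus strand), the second full scaffold, was at 6.68 FPKM with siHNRNPA1 (95% interval 6.31 to 7.06), against 35.8 FPKM with sicontrol (34.8 to 36.7), from 1219 counts with siHNRNPA1 and 5608 with sicontrol. The siHNRNPA1 level of EIF4G3 was 18.7% of the control level. EIF4G1 made up 71.4% of the family's FPKM with siHNRNPA1 and 53.1% with sicontrol.

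The 4E-BP proteins hold eIF4E away from the scaffold. EIF4EBP1 was at 254 FPKM with siHNRNPA1, against 134 FPKM with sicontrol. EIF4EBP2 (chr10:70404379-70428618, plus strand) was at 18.2 FPKM with siHNRNPA1, against 38.2 FPKM with sicontrol, a log2 fold of -1.03 that only just passed the limit. Its sign was not kept after subtraction of its nearest genes, where it stood at 0.17. EIF4EBP1 thus made up 89.8% of this family's FPKM with siHNRNPA1 and 74.8% with sicontrol. The FPKM of EIF4EBP1 was 60.4 times that of EIF4E in the siHNRNPA1 library and 4.85 times in the sicontrol library, and by counts scaled to library size 7.23 times with siHNRNPA1 and 1.76 times with sicontrol. EIF4EBP3 was at 10.8 FPKM with siHNRNPA1, against 6.80 FPKM with sicontrol. It shares exons with the readthrough gene ANKHD1-EIF4EBP3, which was at 9.35 FPKM with siHNRNPA1, against 27.6 FPKM with sicontrol. EIF4ENIF1, which encodes a protein that takes eIF4E into the nucleus, was at 6.66 FPKM with siHNRNPA1, against 11.7 FPKM with sicontrol.

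**Figure D3:**
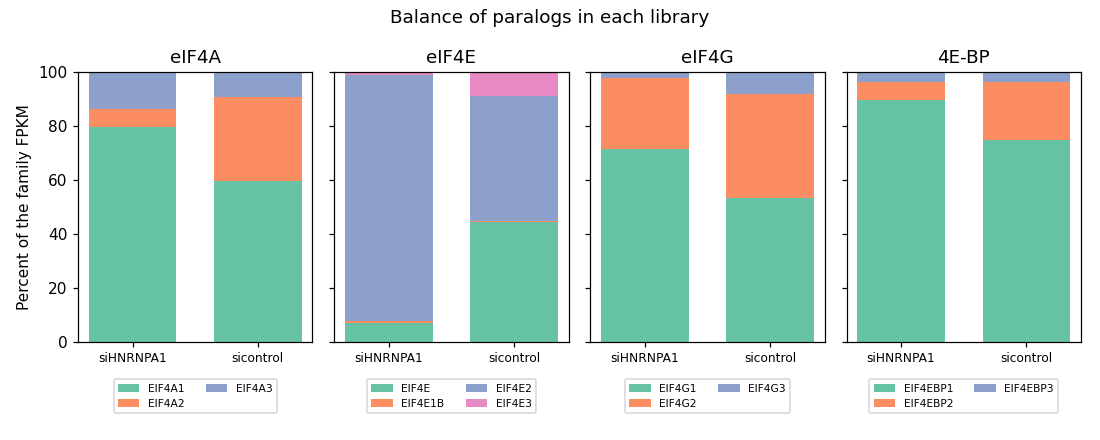
Percent of the summed FPKM of a family held by each paralog, in the siHNRNPA1 library (left bar of each panel) and the sicontrol library (right bar), for eIF4A, eIF4E, eIF4G and the 4E-BP genes. EIF4A1, EIF4E2, EIF4G1 and EIF4EBP1 take a larger part of their families in the siHNRNPA1 library, at 79.6%, 91.1%, 71.4% and 89.8%.

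The late-acting factors included both higher genes. EIF5A (chr17:7306999-7312463, plus strand), the hypusine-carrying factor that also serves elongation, was the most abundant gene of the set in the siHNRNPA1 library, at 652 FPKM (95% interval 644 to 659), against 267 FPKM with sicontrol (262 to 272). Its log2 fold was 1.29. EIF6 (chr20:35278911-35284985, minus strand), which keeps the large ribosomal subunit from joining too early, was at 212 FPKM with siHNRNPA1, against 89.9 FPKM with sicontrol, a log2 fold of 1.23. EIF6 shares exons on the same strand with the gene AL121753.1. EIF5, which triggers GTP hydrolysis by eIF2, was at 30.9 FPKM with siHNRNPA1, against 18.1 FPKM with sicontrol. EIF5B, the GTPase of subunit joining, was at 31.9 FPKM with siHNRNPA1, against 48.3 FPKM with sicontrol, the only one of the 4 below 0. Whether the counting used strand is not given in the sources used here, so reads of genes that overlap on opposite strands, such as EIF3A with NANOS1, EIF4A2 with RFC4, EIF4G2 with CTR9 and EIF5A with GPS2, cannot be told apart.

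The transcripts within a gene were compared by their share of its FPKM, for genes with several transcripts that reached 5 FPKM in each library. 12 of 40 such initiation factor genes had a transcript whose share differed by at least 20 percentage points, where 40.6% of all genes did. The median of the largest difference per gene was 9.24 points over these 40 genes and 15.4 points over all genes. In 8 of the 40 genes the most abundant transcript was not the same in both libraries, where 28.7% of all genes had such an exchange. The counts given per transcript are the authors' assignments, and the intervals on shares of counts do not cover errors of assignment.

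4 exons tell the larger or better defined differences apart, and they were chosen after their values were seen. They are given from GENCODE release 29 (GRCh38), 5′ to 3′ on the strand of the gene. The EIF4A2 exon at chr3:186788310-186788416 (plus strand, 107 bases, first 30 shown) brings an early stop codon, in capitals. The EIF4G3 exon at chr1:21089138-21089213 (minus strand, 76 bases) codes in the long transcripts that start far upstream. The EIF3L exon at chr22:37855565-37855644 (plus strand, 80 bases) is coding and is absent from the main control transcript. The EIF4H exon at chr7:74190247-74190306 (plus strand, 60 bases) is coding and keeps the reading frame.
EIF4A2 exon: gagtcgaTAGcagcagttggtgacgagatg
EIF4G3 exon: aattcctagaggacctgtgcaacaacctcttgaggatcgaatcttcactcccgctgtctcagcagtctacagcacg
EIF3L exon: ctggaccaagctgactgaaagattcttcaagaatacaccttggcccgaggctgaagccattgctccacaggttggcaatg
EIF4H exon: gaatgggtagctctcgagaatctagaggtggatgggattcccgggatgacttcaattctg

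In EIF4A2 the transcript with the stop-carrying exon, EIF4A2-202, is annotated for nonsense-mediated decay, a pathway that removes mRNAs with an early stop. It made up 80.5% of the gene's FPKM with siHNRNPA1 and 51.3% with sicontrol. Of the counts of transcripts that span the place of the exon, 83.3% came from the one that holds it with siHNRNPA1 (exact 95% binomial interval 81.8 to 84.7) and 55.0% with sicontrol (53.9 to 56.1). The coding transcript EIF4A2-205 made up 7.28% with siHNRNPA1 and 30.9% with sicontrol. Over protein-coding transcripts alone, EIF4A2 was at 4.10 FPKM with siHNRNPA1, against 48.7 FPKM with sicontrol, a log2 fold of -3.29. Its transcripts annotated for decay were lower as well, at 35.4 FPKM with siHNRNPA1, against 93.8 FPKM with sicontrol, by a smaller factor.

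Among the 40 genes compared, the largest difference of share was in EIF4G3. EIF4G3-201 made up 87.0% of the gene's FPKM with siHNRNPA1 and 1.51% with sicontrol, and EIF4G3-214 made up 5.80% with siHNRNPA1 and 82.3% with sicontrol. In counts these were 1118 and 69 with siHNRNPA1, against 98 and 4852 with sicontrol. EIF4G3-214 has a coding sequence of 5322 bases and begins upstream, while EIF4G3-201 has 4755 and an annotated start downstream of the printed exon. Transcripts that hold that exon made up 13.0% of the FPKM with siHNRNPA1 and 98.5% with sicontrol. All 7 annotated transcripts that span the place of the exon include it, so skipping of the exon could not be measured here.

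In eIF3, EIF3L showed a difference in coding sequence. EIF3L-203 made up 61.3% with siHNRNPA1 and 25.7% with sicontrol, and EIF3L-202 made up 28.8% with siHNRNPA1 and 60.3% with sicontrol. The coding sequences are 1821 and 1398 bases long, and transcripts with the printed exon made up 70.0% of the FPKM with siHNRNPA1 and 39.5% with sicontrol. EIF3D transcripts differed in the first exon and not in the coding sequence: EIF3D-203 made up 48.3% with siHNRNPA1 and 2.44% with sicontrol. EIF3H-209, the main transcript of EIF3H, made up 60.1% with siHNRNPA1 and 90.1% with sicontrol. EIF3M-203 made up 52.8% with siHNRNPA1 and 24.0% with sicontrol. By share of counts, the largest difference was 7.09 points in EIF3H and 14.3 points in EIF3M, within the limit. EIF3B-201, whose coding exons are those of the main transcript, made up 37.7% with siHNRNPA1 and 15.8% with sicontrol.

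Among the eIF2B genes, EIF2B3-201 made up 57.9% with siHNRNPA1 and 15.5% with sicontrol, in place of the shorter coding sequence of EIF2B3-203. EIF2B2-201, the full coding transcript of EIF2B2, made up 48.2% with siHNRNPA1 and 98.5% with sicontrol, and EIF2B2-202, annotated for nonsense-mediated decay, made up 37.0% with siHNRNPA1 and 1.51% with sicontrol. These shares weigh short transcripts heavily, since EIF2B2-202 had only 150 counts with siHNRNPA1 and 5 with sicontrol, and by share of counts the largest difference in EIF2B2 was 17.6 points. In EIF2A, EIF2A-206 made up 34.3% with siHNRNPA1 and 6.31% with sicontrol. Its annotated coding sequence of 947 bases is not a whole number of codons, so this transcript is annotated incompletely. EIF1AD-201 made up 56.9% with siHNRNPA1 and 5.60% with sicontrol, with the same coding exons as the transcript it stood in for. In EIF4G1, a transcript with a coding sequence of 2271 bases made up 9.01% with siHNRNPA1 and 43.4% with sicontrol. EIF4G1-221, with 4308 coding bases, made up 36.5% with siHNRNPA1 and 14.8% with sicontrol. 9 of the 12 genes still passed 20 points when transcripts with the same coding sequence were pooled. EIF2A and EIF4G1 are among them, and with incomplete transcripts a difference of coding sequence need not be one of encoded protein.

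**Figure D4:**
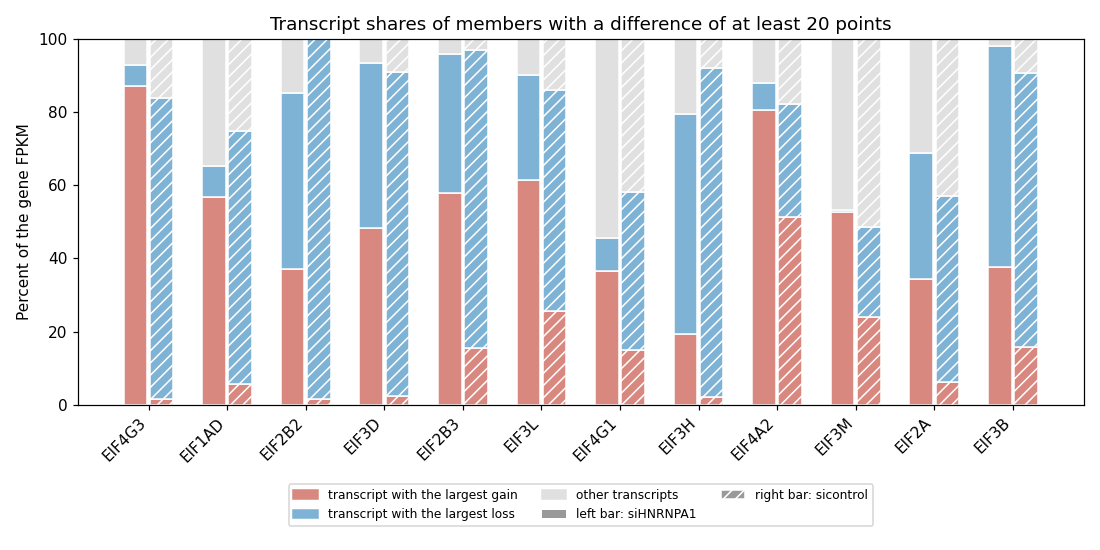
Percent of the gene's FPKM held by the transcript with the largest gain (red), the one with the largest loss (blue) and all others (grey), in the siHNRNPA1 library (left, plain) and the sicontrol library (right, hatched), for the 12 genes with a difference of at least 20 points. EIF4G3 and EIF1AD show the widest exchange.

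EIF4H, a cofactor of the helicase, was within 20 points but had a well-defined cassette exon. Transcripts with its 60-base exon made up 4.98% of the FPKM with siHNRNPA1 and 0.920% with sicontrol. In counts this was 5.31% with siHNRNPA1 (95% interval 4.98 to 5.65) and 0.989% with sicontrol (0.827 to 1.17), intervals that cover counting error in these 2 libraries only. The letters TAGG, a core known in hnRNP A1 binding sites, were searched on the sense strand only, in all 4 exons. They occurred 1 time in the EIF4A2 exon, beyond the bases shown, and 0 times in the others. Among internal exons of similar length, within 5 bases, 8.59% held these letters for the EIF4A2 length and 4.76% to 6.43% for the other 3 lengths. A match is a description of the letters and not a site.

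Transcripts annotated for nonsense-mediated decay were compared over the 22 initiation factor genes that had any, among those with several transcripts and 5 FPKM in each library. Their share was at least 10 points higher with siHNRNPA1 in 5 genes, where 13.2% of all such genes were, and at least 10 points lower in 1, where 16.2% were. The limit of 10 points was chosen after the values were seen. In EIF2B2 it was 51.8% with siHNRNPA1 and 1.51% with sicontrol, and in EIF3F 29.9% with siHNRNPA1 and 14.2% with sicontrol. In EIF3H it was 17.3% with siHNRNPA1 and 0.409% with sicontrol. The helicase genes were the other two: the share was 30.8% with siHNRNPA1 and 8.51% with sicontrol in EIF4A1, and 89.6% with siHNRNPA1 and 65.8% with sicontrol in EIF4A2. EIF2A was the lower one of the 22, with 3.44% with siHNRNPA1 and 14.1% with sicontrol. EIF4E was left out because it was below 5 FPKM with siHNRNPA1, and its share was 0% with siHNRNPA1 and 69.7% with sicontrol. By share of counts, 3 of the 22 genes were at least 10 points higher, where 11.04% of all such genes were. These 3 were among the 5. EIF3F (6.07% with siHNRNPA1 and 2.49% with sicontrol) and EIF3H (4.05% with siHNRNPA1 and 0.0797% with sicontrol) were then within 10 points. EIF2A was then at 1.64% with siHNRNPA1 and 7.48% with sicontrol. None of the 22 was at least 10 points lower by share of counts, where 12.19% of all such genes were. For EIF4A1 the coding transcripts alone had a log2 fold of 0.41, against 0.81 for all. Over all genes such transcripts made up 4.11% of the FPKM with siHNRNPA1 and 3.54% with sicontrol.

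Folds went with the length and base composition of the transcripts, in these genes as in all genes. Across the 47 genes, all read from the same 2 libraries and no replicates of each other, the rank correlation (Spearman's rho) of the fold was 0.64 with the GC content of the leading transcript and -0.46 with its length, and across all genes 0.58 and -0.46. Within eIF3 the values were 0.73 and -0.44 over 14 genes. Median GC content was 58.8% for the 2 higher genes and 42.4% for the 7 lower genes. When the median fold of the 100 nearest genes in expression, length and GC content was subtracted from each gene, 6 of the 47 were at least 2-fold higher, where 8.06% of all genes were, and 5 at least 2-fold lower, where 8.41% were. EIF3A (-1.29), EIF4A2 (-1.32), EIF4E (-2.51), EIF4E3 (-1.39) and EIF4G3 (-1.47) were still at least 2-fold lower. With length and GC content averaged over a gene's transcripts by their counts, EIF4E3 was at -0.68, within 2-fold, and EIF4E at -1.02, since its leading transcript by FPKM is the one of 738 bases without counts in the siHNRNPA1 library. EIF4G2 (-0.46) was within 2-fold of its nearest genes. EIF5A and EIF6 stood at 0.64 and 0.43, within 2-fold. EIF5 (1.95), EIF1 (1.36), EIF2S1 (1.35), EIF3F (1.21), EIF3H (1.08) and EIF2B2 (1.01) were above their nearest genes, EIF2B2 no longer by 2-fold with the count-weighted properties. The subtraction started from FPKM folds. Before it, the folds of EIF3F, EIF3H and EIF2B2 were lower by counts scaled to library size, at -0.21, -0.48 and -0.45. The part of RNA quality or library composition in the relation with length and GC content was not tested.

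**Figure D5:**
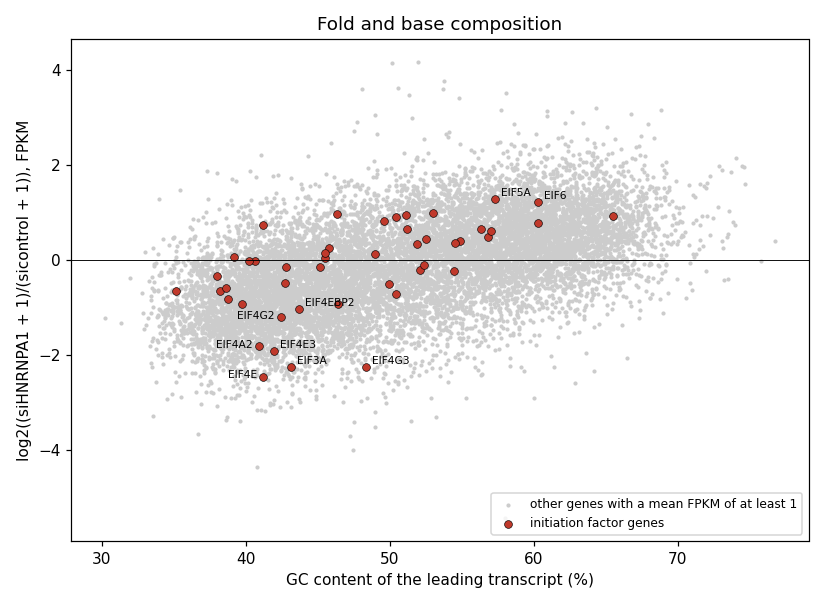
Log2 fold of siHNRNPA1 over sicontrol against the GC content of the leading transcript, for initiation factor genes (red) and all other genes with a mean of at least 1 FPKM (grey), with the 9 genes past 2-fold named. EIF5A and EIF6 lie among the GC-rich genes and the 7 lower genes on the GC-poor side.

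The wider pathway was described by 4 lists with 54 genes measured, of which 7 were at least 2-fold higher, where 12.4% of all genes were, and 16 at least 2-fold lower, where 21.9% were. Among 17 partners of the initiation complex none was higher and 7 were lower, with a median fold of -0.95 where that of all genes was -0.13. These were the eIF5-like regulator BZW1 (-2.25), CYFIP1 (-1.71), the EIF4A inhibitor PDCD4 (-1.59), GIGYF2 (-1.54), which works with EIF4E2, the recycling factor ABCE1 (-1.47), and the regulators of poly(A)-binding protein PAIP1 (-1.14) and PAIP2B (-1.05). For PAIP1 the gap was narrower in counts, at 929 with siHNRNPA1 and 1377 with sicontrol. None of the 7 was 2-fold below its nearest genes in expression, length and GC content.

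Among 13 genes of the eIF2 kinases, the phosphatase that opposes them and their targets, 2 were higher (12.4% over all genes) and 5 lower (21.9%). DDIT3, a transcription factor induced when eIF2 is phosphorylated, was at 30.2 FPKM with siHNRNPA1, against 1.55 FPKM with sicontrol, from 922 counts with siHNRNPA1 and 46 with sicontrol, a log2 fold of 3.62. PPP1R15A, the inducible phosphatase subunit, was at 26.9 FPKM with siHNRNPA1, against 11.1 FPKM with sicontrol. ATF4, which acts upstream of both and is itself mainly set by translation, was at 458 FPKM with siHNRNPA1, against 426 FPKM with sicontrol. The kinase genes EIF2AK2, EIF2AK3 and EIF2AK4 were lower, with folds of -1.44, -1.43 and -1.67. The constitutive phosphatase subunit PPP1R15B (-1.81) and PPP1CC (-1.22), a catalytic subunit gene, were lower too. The other catalytic subunit genes listed, PPP1CA and PPP1CB, had folds of 0.76 and -0.59. None of the 5 lower genes was 2-fold below its nearest genes in expression, length and GC content.

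Of 12 genes of the signalling that controls the 4E-BP proteins, DDIT4, an inhibitor of mTOR, was at 63.5 FPKM with siHNRNPA1, against 15.6 FPKM with sicontrol. AKT1S1, another mTOR inhibitor, was at 76.5 FPKM with siHNRNPA1, against 20.4 FPKM with sicontrol. MLST8, a subunit of the mTOR complexes, was higher too (1.16), and TSC1 was lower (-1.02). Of 12 genes of elongation and termination, DOHH, an enzyme that makes hypusine on eIF5A, was at 33.2 FPKM with siHNRNPA1, against 8.10 FPKM with sicontrol. EEF1D was higher as well (1.73), and GSPT1, EEF2K and ETF1 were lower (-1.73, -1.14 and -1.11). By counts scaled to library size only 1 of these 12 genes was at least 2-fold lower, where 24.7% of all genes were. GSPT1 had 3935 counts with siHNRNPA1 and 6329 with sicontrol, and ETF1 3848 with siHNRNPA1 and 4706 with sicontrol, narrower gaps than in FPKM. In FPKM, DDIT3, DDIT4, AKT1S1 and DOHH were also at least 2-fold above their nearest genes, and GSPT1 at least 2-fold below.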

How the data were processed

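The deposited transcript table holds, per the file headers, a count, a TPM and an FPKM value for each transcript. The authors' counts are whole numbers per transcript and look like estimated counts, since they are divided between transcripts that share exons. The authors' TPM and FPKM values scale them by length and library. What quantified the transcripts, and whether strand was used, is not given in the sources used here. GRCm38 and mm10, both mouse builds, are named in the submitters' processing notes, but the IDs are human, and 95033 of 95139 transcripts were found in GENCODE release 29. 6 value columns that match no sample were not used.

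FPKM was summed per gene, and folds were taken after 1 FPKM was added (Python 3.11.15, pandas 2.3.3). Genes with a mean of at least 1 FPKM were kept. Intervals are exact 95% Poisson or binomial (Clopper-Pearson) intervals of counts (SciPy 1.17.1) and cover counting error only. With 1 library per condition there was no test. The fold and share steps were tested on simulated data. Values in full are given for genes past 2-fold, for genes with a share difference of 20 points and for the core subunits. Members and gene lists were chosen with earlier results of these data known. The paralog ratios, the finer families of subunits, the stem cell markers, the exons shown and the TAGG search were chosen after values were seen. Alternatives were pseudocounts, filters, TPM, counts scaled to library size, median ratio scaling, protein-coding transcripts alone, the nearest genes and a 1.5-fold limit. A further one added SENP3-EIF4A1 to EIF4A1, EIF3CL to EIF3C and EIF5AL1 to EIF5A, but not ANKHD1-EIF4EBP3 to EIF4EBP3.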

Additional observations from a re-analysis of the deposited data

How the results depend on the processing

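No paired analysis was possible because each condition had 1 library, and for the same reason no library could be left out. The initiation factor genes at least 2-fold higher numbered 2 (12.4% over all genes). They numbered 7 after median ratio scaling (16.1%) and 6 after nearest-gene subtraction (8.06%). With count-weighted length and GC content in that subtraction (chosen after seeing the data) they numbered 6 (8.23%), and at 1.5-fold 13 (24.2%). The lower genes numbered 7 (21.9% over all genes), against 14 at 1.5-fold (34.3%). With the count-weighted subtraction they numbered 4 (7.67%), without EIF4E3, EIF4EBP2 and EIF4G2. Of the other pathway genes, nearest-gene subtraction left 4 higher (8.06% over all genes) and 1 lower (8.41%). Median folds that moved were those of eIF1 (0.14 after median ratio scaling, 0.50 after nearest-gene subtraction), eIF2 (-0.37 in TPM, -0.062 and 0.23), eIF2B (0.40 after median ratio scaling), eIF3 (-0.17 in TPM, 0.13 and 0.13, -0.18 in counts scaled to library size) and eIF5 with eIF6 (0.84 in TPM, 1.14 and 0.62, 1.09 in counts scaled to library size), where paired values are median ratio scaling and then nearest genes. A median counted as moved if it differed by at least the widest counting half-width of its genes. For eIF4 that was 0.303, and its median did not count as moved. It was -0.91 in TPM, -0.61 in counts scaled to library size, -0.59 after median ratio scaling and -0.46 after nearest-gene subtraction. The median over the 47 genes did not count either, at -0.16 in TPM. Its sign was not kept after median ratio scaling (0.14) and nearest-gene subtraction (0.17). HNRNPA1 stood at -2.03 in TPM and -1.72 after median ratio scaling. In counts scaled to library size the share within the family differed by -27.6 points for EIF4A2, -23.5 for EIF4E, -9.22 for EIF4G3 and -33.2 for EIF4EBP2. EIF4EBP2 was reversed, at 0.17, under both nearest-gene settings, and it was within 2-fold after median ratio scaling. It and EIF4E3 were within 2-fold with a pseudocount of 5 FPKM, and EIF4E was over protein-coding transcripts alone. The median of all genes was -0.30 in TPM. The 12 of 40 genes past 20 points (40.6% over all genes) became 9 of 40 by share of counts (36.3%), without EIF2B2, EIF3H and EIF3M. They were 11 of 38 from 10 FPKM (37.8%) and 10 of 39 over protein-coding transcripts alone (38.1%). Under the alternatives that changed any fold, 47 of 81 values of the genes past 2-fold moved by at least the half-width of their counting interval. A further 2 changed sign, both of EIF4EBP2, and 32 stayed within the half-width. The cause of these changes was not tested. Without replicates, differences between cultures and differences between conditions cannot be told apart.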
